A study of Rattus norvegicus with 8 samples.

Results

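The neuregulins, the ligands of the EGF family and the ErbB receptors were examined in rat sciatic nerve. The 9 genes are the ligands Nrg1, Nrg2, Btc, Areg and Hbegf and the receptors Egfr, Erbb2, Erbb3 and Erbb4, taken by their symbols from a table of 32545 genes, and each symbol stood on 1 Ensembl identifier. Bulk RNA sequencing was done on PEG-fused PNAs (n = 3), NC PNAs (n = 3) and nerves of the Unop group (n = 2), each library from the nerve of a separate animal. A PNA is a peripheral nerve allograft that bridges an ablated stretch of the sciatic nerve, and polyethylene glycol (PEG) is the agent used to fuse its cut axons with those of the host. All animals were outbred wild-type female Sprague Dawley (Envigo) rats aged 3 to 6 months. PEG-fused PNAs and NC PNAs came from donors that were not tissue matched, went into hosts that were not immune suppressed, and were excised at 14 days PO (post operation). Both kinds of PNA were washed with hypotonic Plasmalyte A, exposed to methylene blue and sutured by neurorrhaphy, and PEG was left out for the negative controls (NC). Unop nerves were not operated. The libraries hold RNA of the whole tissue, in which transcripts of donor and host were not told apart.

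ErbB proteins are receptor tyrosine kinases that pair on the cell surface once a ligand binds. Neuregulins bind ErbB3 and ErbB4, whereas EGF, amphiregulin and transforming growth factor alpha bind EGFR, and betacellulin and heparin-binding EGF bind both EGFR and ErbB4. ErbB2 has no known ligand of its own and acts as a partner of the other receptors, and ErbB3 has little kinase activity and depends on such a partner. In peripheral nerve, axonal neuregulin acts through ErbB2 and ErbB3 on Schwann cells, where it is known for its roles in survival, migration and myelination.

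Each library held 32472925 to 39959620 reads assigned to genes. The markers of the Schwann cell lineage that were measured, 6 of 7, summed to between 54910 and 60470 normalized counts in PEG-fused PNAs, between 20160 and 31708 in NC PNAs and between 263024 and 268639 in Unop nerves. In PEG-fused against NC PNAs, 5 of these 6 markers were called higher and none lower. Against Unop nerves, 5 of them were called lower and 1, Ngfr, higher in both kinds of PNA. All 8 myelin markers were called lower in both kinds of PNA than in Unop nerves, and none was called in PEG-fused against NC PNAs. NC 1 stood apart here as well, with a myelin sum of 67925 beside 19239 in NC 2, 14523 in NC 3 and between 38524 and 47664 in PEG-fused PNAs, and without it 3 of the 8 were called higher in PEG-fused PNAs. Of 7 macrophage markers 5 were called lower in PEG-fused than in NC PNAs, with sums of 85534 to 102409 against 132201 to 153911, and all 7 T cell markers were called lower, with sums of 7058 to 10394 against 24394 to 41651. Cd68 was among the 2 macrophage markers not called, with 20030 to 22451 normalized counts in PEG-fused PNAs and 14060 to 18968 in NC PNAs. Markers of skeletal muscle fibres set 2 libraries apart, with sums of 463517 in NC 1 and 163634 in NC 3 beside 8504 in NC 2 and between 2273 and 23996 in the libraries of the other groups. Without NC 1 and NC 3, NC 2 is the only control. Its Schwann cell lineage sum of 23837 and its myelin sum of 19239 lay below those of every PEG-fused PNA. Its macrophage sum of 148237 and its T cell sum of 41651 lay above those of every PEG-fused PNA. Adipocyte, perineurial and most epithelial markers were called lower in both kinds of PNA than in Unop nerves. The counts were 5 of 5 adipocyte, 4 of 4 tested perineurial and 2 of 3 tested epithelial markers in each. The remaining epithelial marker, Epcam, was called higher in each. Its normalized counts were 8.76 to 24.7 in Unop nerves, 79.1 to 117 in NC PNAs and 213 to 310 in PEG-fused PNAs. Cdh1, with a mean of 7409 normalized counts in Unop nerves, made up most of their epithelial sum. Adipocyte sums were between 660 and 918 in PEG-fused PNAs, between 736 and 1759 in NC PNAs and between 30489 and 55815 in Unop nerves, perineurial sums were between 4304 and 7328 in the PNAs and between 79044 and 91497 in Unop nerves, and epithelial sums were between 509 and 685 in the PNAs and between 6418 and 9039 in Unop nerves. Endothelial sums were between 9862 and 13567 in PEG-fused PNAs, between 9450 and 11915 in NC PNAs and between 18405 and 19737 in Unop nerves. Of 5 endothelial markers measured, 3 were called lower than in Unop nerves in PEG-fused PNAs and 4 in NC PNAs, and 0 higher. The part of all these cells, or of Schwann cells, in the falls of Hbegf, Erbb4, Tgfa and Nrg4 against Unop nerves, given with each gene, was not tested. Fibroblast sums were between 607669 and 890082 in PEG-fused PNAs, between 345665 and 525591 in NC PNAs and between 375348 and 505641 in Unop nerves. Of 6 fibroblast markers, 2 were called higher and 0 lower in PEG-fused than in NC PNAs. Without NC 1, 1 of them was called higher. Against Unop nerves, 4 were called higher and 1 lower in PEG-fused PNAs, and 1 higher and 1 lower in NC PNAs. In whole tissue, fewer cells of a type and less RNA per cell cannot be told apart.

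**Figure D1:**
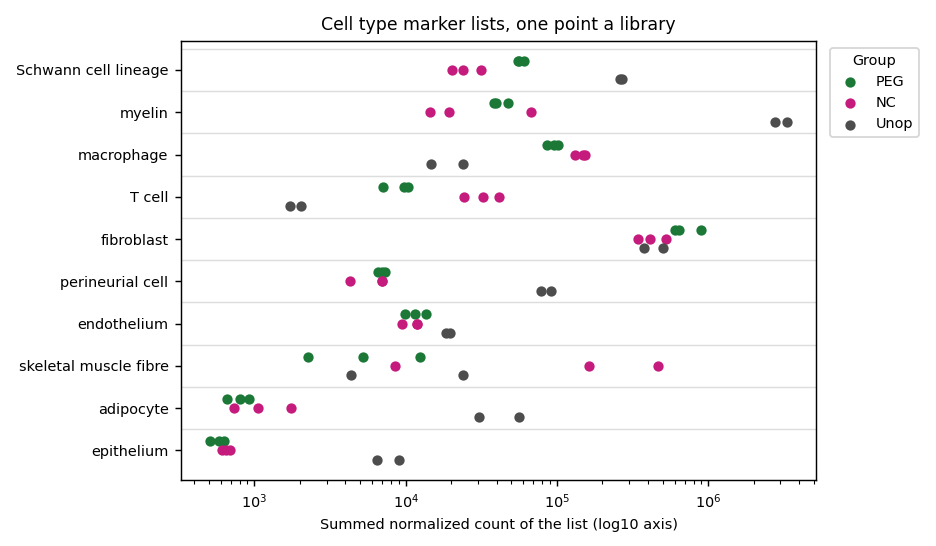
Summed normalized counts of 10 lists of cell type markers on a log10 axis, with 1 point per library coloured by group. Schwann cell lineage sums are ordered Unop, PEG, NC from high to low with no overlap, T cell sums are ordered NC, PEG, Unop, and the muscle sums of NC 1 and NC 3 lie apart from the other 6 libraries.

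Ligand and receptor transcripts moved in different ways. Relative to Unop nerves, Nrg1 and Btc were significantly higher in both kinds of PNA, and Nrg2 was higher in NC PNAs. Areg, which was tested only because of its counts in PEG 1 and PEG 2, was called higher in PEG-fused PNAs, but not without Unop 2 (adjusted p = 0.0536). Hbegf was significantly lower in both kinds of PNA. Erbb4, which was tested only because of its counts in the 2 Unop nerves, was called lower in both kinds of PNA. Compared to NC PNAs, PEG-fused PNAs held more Btc, Egfr, Erbb2 and Erbb3 and less Nrg2. A gene is called here when its adjusted p is below 0.05 in limma on log2(normalized count + 1), in 1 fit of the 8 libraries over 16478 genes. For scarce transcripts, this scale gives fold changes that are too small. Comparisons of either kind of PNA with Unop nerves share the same 2 Unop libraries and are given side by side. Groups without overlap are common with so few libraries. Of all tested genes, 25.6% lay higher and 23.3% lower without overlap in PEG-fused against NC PNAs. Against Unop nerves these shares were 37.3% and 37.2% for PEG-fused PNAs, and 37.2% and 37.4% for NC PNAs.

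**Figure D2:**
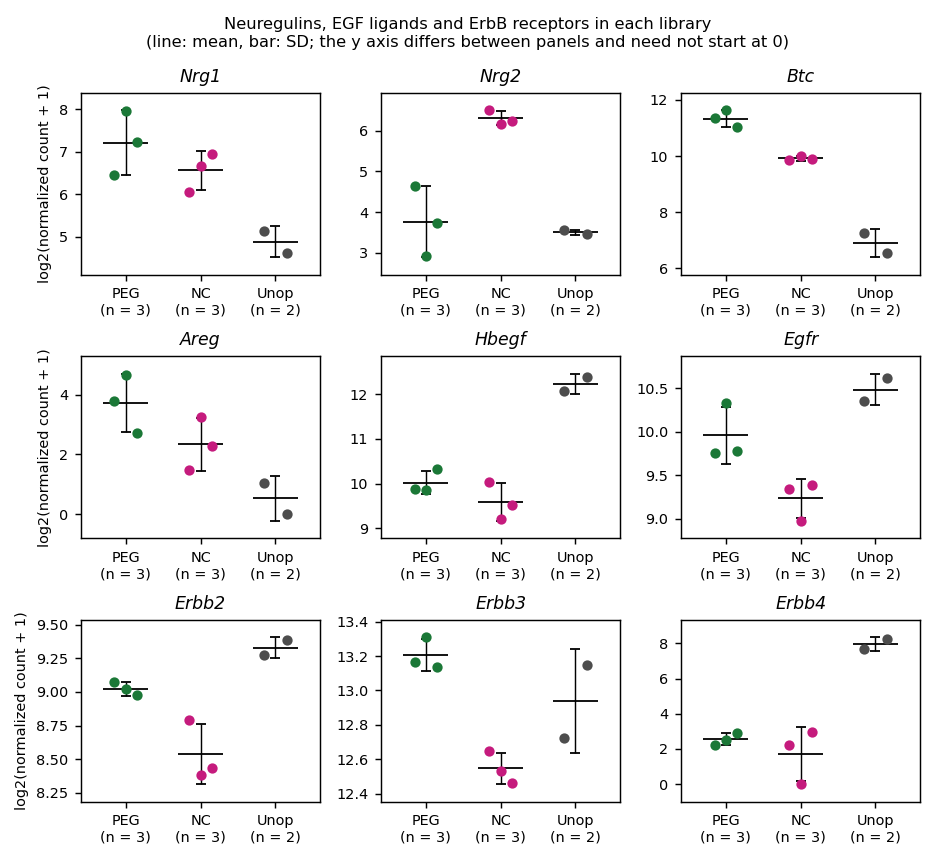
Levels of the 9 genes in each library as log2(normalized count + 1), with 1 point per library, a line at the group mean and a bar of 1 SD. Points of NC PNAs lie above both other groups for Nrg2, those of PEG-fused PNAs lie above both for Btc, and Unop points lie above both for Hbegf and Erbb4.

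Btc (ENSRNOG00000002728) encodes betacellulin, a ligand of EGFR and ErbB4. Its normalized counts were 2585, 3160 and 2109 in PEG-fused PNAs, 918, 1017 and 960 in NC PNAs, and 152 and 92.6 in Unop nerves. The 3 groups did not overlap, with PEG-fused PNAs highest and Unop nerves lowest. Means were 2618 ± 526 (SD, n = 3), 965 ± 49.6 (SD, n = 3) and 122 ± 42.3 (SD, n = 2). Btc was 2.68-fold higher in PEG-fused than in NC PNAs (95% confidence interval 1.94 to 3.69, log2 fold change 1.42, SE 0.20, adjusted p = 0.00213). It was 21.6-fold higher in PEG-fused PNAs than in the Unop nerves (15.1 to 30.9, adjusted p = 2.45e-06) and 8.05-fold higher in NC PNAs (5.62 to 11.5, adjusted p = 9.6e-06). None of the alternatives ended these calls, and the log2 fold change of PEG-fused against NC PNAs ranged from 1.28 to 1.57 across them.

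Areg (ENSRNOG00000002754) encodes amphiregulin, a ligand of EGFR. In the RefSeq annotation of GRCr8, Btc, Areg and Ereg (epiregulin) follow each other with 0 protein-coding genes between neighbours. Areg was scarce, with normalized counts of 13.0, 24.3 and 5.63 in PEG-fused PNAs, 1.79, 8.61 and 3.86 in NC PNAs, and 1.07 and 0 in Unop nerves. Both kinds of PNA lay above the Unop nerves, and they overlapped each other. As reads, these were 46 in the 3 PEG-fused PNAs, 14 in the 3 NC PNAs and 1 in the 2 Unop nerves, where the count of 0 in Unop 2 allows up to 3.75 normalized counts. The ratio of PEG-fused PNAs to Unop nerves was 24.8, with an exact 95% interval of 4.23 to 1000 that covers counting error only, and that of NC PNAs to Unop nerves was 7.86 (1.20 to 332). Limma called Areg higher in PEG-fused PNAs than in the Unop nerves (log2 fold change 3.21, SE 0.75, adjusted p = 0.00623). Without Unop 2 this call was lost (2.68, adjusted p = 0.0536). Areg passed the filter on low counts only through PEG 1 and PEG 2. In NC PNAs against Unop nerves it missed the threshold (1.82, SE 0.75, adjusted p = 0.061), which it passed without NC 1 (2.25, adjusted p = 0.0336). Without NC 1 and NC 3, with NC 2 as the only control, the log2 fold change was 2.74. In PEG-fused against NC PNAs the log2 fold change was 1.39 (SE 0.67, 95% interval -0.14 to 2.92, adjusted p = 0.154). Ereg had fewer than 2 normalized counts in each of the 8 libraries and was not tested.

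The stretches upstream of the start sites of Btc and Areg are shown because these neighbouring genes both rose in PEG-fused PNAs against Unop nerves, and that of Erbb4 because this receptor fell the most among the 9 genes. Each holds the 250 bases before the start in RefSeq, build GRCr8, written 5′ to 3′ on the strand of the gene, for Btc chr14:16992418-16992667 (+), for Areg chr14:17265642-17265891 (-) and for Erbb4 chr9:78045607-78045856 (-). Such a sequence was found for 7 of the 9 genes and not for Nrg1 and Erbb3. Capitals mark matches, on either strand, to the TATA box TATAAA, the cyclic AMP response element TGACGTCA, the AP-1 site TGANTCA or the GC box GGGCGG.
Btc: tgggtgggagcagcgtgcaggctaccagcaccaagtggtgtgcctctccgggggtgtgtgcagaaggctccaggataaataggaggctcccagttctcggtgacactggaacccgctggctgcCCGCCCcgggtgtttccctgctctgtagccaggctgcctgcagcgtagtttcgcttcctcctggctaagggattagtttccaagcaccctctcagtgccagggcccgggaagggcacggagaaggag
Areg: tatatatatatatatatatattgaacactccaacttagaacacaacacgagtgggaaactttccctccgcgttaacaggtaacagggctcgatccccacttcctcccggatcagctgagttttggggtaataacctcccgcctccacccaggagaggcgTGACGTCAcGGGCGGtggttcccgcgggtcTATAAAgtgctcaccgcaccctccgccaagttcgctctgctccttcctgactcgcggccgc
Erbb4: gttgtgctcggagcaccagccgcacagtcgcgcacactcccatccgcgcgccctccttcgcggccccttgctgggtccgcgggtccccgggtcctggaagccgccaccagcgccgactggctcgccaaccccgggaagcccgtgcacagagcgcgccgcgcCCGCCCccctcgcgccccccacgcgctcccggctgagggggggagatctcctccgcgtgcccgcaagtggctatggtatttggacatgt
The Areg stretch holds the cyclic AMP response element 91 bases before the start, which 1.70% of 27457 rat promoters of the same length hold, along with a GC box at 82 bases and a TATA box at 61 bases, present in 32.4% and 13.1% of promoters. Btc holds a GC box at 127 bases and Erbb4 at 89 bases. The AP-1 letters, present in 6.36% of promoters, were not in the stretches of the 7 genes, which says nothing about binding. Among the remaining 4 genes, Nrg2, Egfr and Erbb2 hold a GC box, and Hbegf holds none of the 4 motifs.

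Hbegf (ENSRNOG00000018646) encodes the heparin-binding EGF-like growth factor, which is made as a membrane protein and shed. Normalized counts were 942, 931 and 1276 in PEG-fused PNAs, 1056, 592 and 735 in NC PNAs, and 4291 and 5371 in Unop nerves. Every PNA lay far below both Unop nerves, and the PNAs of the 2 kinds overlapped. Hbegf was 4.62-fold lower in PEG-fused PNAs than in the Unop nerves (log2 fold change -2.21, SE 0.25, adjusted p = 0.000119) and 6.21-fold lower in NC PNAs (-2.64, SE 0.25, adjusted p = 3.07e-05). Between PEG-fused and NC PNAs the log2 fold change was 0.43 (95% interval -0.08 to 0.93, adjusted p = 0.178). NC 1 decided this value, since without it Hbegf was called higher in PEG-fused PNAs (0.65, adjusted p = 0.0328). Without NC 1 and NC 3, with NC 2 as the only control, the log2 fold change was 0.81.

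Nrg1 (ENSRNOG00000010392) encodes neuregulin 1, whose isoforms include the axonal membrane-bound form and secreted forms, which counts per gene do not separate. Its normalized counts were 86.2, 249 and 150 in PEG-fused PNAs, 65.2, 101 and 123 in NC PNAs, and 34.3 and 23.8 in Unop nerves. Unop nerves were lowest, and the 2 kinds of PNA overlapped, with the spread widest among PEG-fused PNAs (162 ± 81.9, SD, n = 3). Relative to Unop nerves, Nrg1 was 5.03-fold higher in PEG-fused PNAs (95% interval 2.44 to 10.3, log2 fold change 2.33, SE 0.45, adjusted p = 0.0025) and 3.19-fold higher in NC PNAs (1.55 to 6.56, log2 fold change 1.67, SE 0.45, adjusted p = 0.0112). The latter call was lost without Unop 2 (1.42, adjusted p = 0.077). For PEG-fused against NC PNAs the fold was 1.58 with an interval of 0.826 to 3.00 (adjusted p = 0.258). The genes whose log2 levels were most like those of Nrg1 over the 8 libraries were Tbl2 (Pearson's r 0.989), Plod2 (0.989) and Emilin2 (0.985). These correlations, given as a description, rest on 8 points that share 3 groups.

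Nrg2 (ENSRNOG00000019093) encodes neuregulin 2, a ligand of ErbB3 and ErbB4. It had normalized counts of 24.1, 6.54 and 12.2 in PEG-fused PNAs, 89.4, 71.0 and 74.3 in NC PNAs, and 10.7 and 10.01 in Unop nerves. NC PNAs lay above all other libraries, while PEG-fused PNAs spanned the Unop values. Nrg2 was 5.81-fold lower in PEG-fused than in NC PNAs (log2 fold change -2.54, SE 0.42, adjusted p = 0.00396) and 6.94-fold higher in NC PNAs than in Unop nerves (2.79, SE 0.47, adjusted p = 0.000986). Between PEG-fused PNAs and Unop nerves the fold was 1.19 with an interval of 0.561 to 2.54 (adjusted p = 0.667). The call in PEG-fused against NC PNAs held under each alternative, with adjusted p of at most 0.0499, reached without NC 1 and NC 3. No other of the 9 genes was called lower in PEG-fused than in NC PNAs. Nrg2 moved in the direction of the 7 T cell markers and of 5 of 7 macrophage markers, which were called lower in PEG-fused PNAs. The macrophage marker Cd68 was not called and lay higher in PEG-fused than in NC PNAs. Also called lower in PEG-fused than in NC PNAs were 3 of 5 adipocyte markers. Against Unop nerves, all 7 T cell and all 7 macrophage markers were called higher in both kinds of PNA. Nrg2 was called higher there in NC PNAs only. The part of T cells, macrophages and adipocytes in the Nrg2 result was not tested.

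Egfr (ENSRNOG00000004332) encodes the EGF receptor. Normalized counts were 866, 1289 and 874 in PEG-fused PNAs, 647, 503 and 667 in NC PNAs, and 1308 and 1562 in Unop nerves. The groups did not overlap, with NC PNAs lowest and Unop nerves highest, though PEG 2 lay just below Unop 1. Egfr was 1.65-fold higher in PEG-fused than in NC PNAs (95% interval 1.23 to 2.20, log2 fold change 0.72, SE 0.18, adjusted p = 0.0207) and 2.38-fold lower in NC PNAs than in Unop nerves (-1.25, SE 0.20, adjusted p = 0.000794). The former call was lost without PEG 2 (0.53, adjusted p = 0.056) and without NC 2 (0.59, adjusted p = 0.055). In PEG-fused PNAs against Unop nerves Egfr missed the threshold (-0.53, SE 0.20, adjusted p = 0.0542), and it passed without PEG 2 (-0.72, adjusted p = 0.0097), without NC 2 (-0.53, adjusted p = 0.0407) and with DESeq2 (-0.51, adjusted p = 0.0465). The genes most like Egfr over the 8 libraries were AABR07014638.1, Tmem67 and Alg6, each with a Pearson's r of 0.983.

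Erbb2 (ENSRNOG00000006450), the receptor without a known ligand, had normalized counts of 539, 518 and 502 in PEG-fused PNAs, 443, 333 and 345 in NC PNAs, and 617 and 667 in Unop nerves. The order was that of Egfr, with no overlap between groups. Erbb2 was 1.40-fold higher in PEG-fused than in NC PNAs (95% interval 1.14 to 1.72, log2 fold change 0.48, SE 0.13, adjusted p = 0.0258). This call was lost without any 1 of PEG 1, PEG 2, PEG 3, NC 2 or NC 3, with adjusted p between 0.0637 and 0.0804. It was 1.73-fold lower in NC PNAs than in Unop nerves (-0.79, SE 0.15, adjusted p = 0.00155). In PEG-fused PNAs against Unop nerves the log2 fold change was -0.30 (95% interval -0.64 to 0.03, adjusted p = 0.105), called only without NC 1 (-0.30, adjusted p = 0.0467).

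Erbb3 (ENSRNOG00000004964), the neuregulin receptor of Schwann cells, had normalized counts of 9199, 10146 and 8998 in PEG-fused PNAs, 6409, 5931 and 5653 in NC PNAs, and 6769 and 9088 in Unop nerves. PEG-fused PNAs lay above all NC PNAs, and NC PNAs lay below both Unop nerves, of which Unop 2 fell within the range of the PEG-fused PNAs. Erbb3 was 1.58-fold higher in PEG-fused than in NC PNAs (95% interval 1.30 to 1.91, log2 fold change 0.66, SE 0.12, adjusted p = 0.00569), and this call held under each alternative. Relative to Unop nerves it was 1.31-fold lower in NC PNAs (-0.39, SE 0.13, adjusted p = 0.032), a call lost without NC 2 (-0.38, adjusted p = 0.0644), without NC 3 (-0.35, adjusted p = 0.0858), without Unop 2 (-0.18, adjusted p = 0.244), without NC 1 and NC 3 (-0.40, adjusted p = 0.114) and with the fit of those 2 groups alone (-0.39, adjusted p = 0.071). In PEG-fused PNAs the log2 fold change against Unop nerves was 0.27 (95% interval -0.04 to 0.57, adjusted p = 0.122), and 0.48 without Unop 2 (adjusted p = 0.0147).

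Sox10, a transcription factor that marks the Schwann cell lineage, had normalized counts of 2491, 2575 and 2686 in PEG-fused PNAs, 1792, 1438 and 1196 in NC PNAs, and 4257 and 3864 in Unop nerves. It was higher in PEG-fused than in NC PNAs (log2 fold change 0.83, SE 0.14, adjusted p = 0.00394), as Erbb3 was. Sox10 was called lower in PEG-fused PNAs than in the Unop nerves (-0.65, SE 0.15, adjusted p = 0.00678), where Ngfr of the same marker list was called higher (4.28, SE 0.20, adjusted p = 1.96e-06). The part of the number of Schwann cells in the Erbb3 result was not tested. The genes most like Erbb3 over the 8 libraries were LOC687399 (Pearson's r 0.991), Mog (0.990) and Ano2 (0.981). Their mean normalized counts were 26.6, 133 and 10.1, so that LOC687399 and Ano2 were scarce. Mog encodes a glycoprotein of central myelin. These correlations too are a description and rest on few points.

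Erbb4 (ENSRNOG00000014248), a receptor of neuregulins, betacellulin and heparin-binding EGF, had normalized counts of 3.71, 4.67 and 6.57 in PEG-fused PNAs, 3.57, 0 and 6.75 in NC PNAs, and 207 and 300.2 in Unop nerves. Every PNA was near the limit of detection, while both Unop nerves held far more. The count of 0 in NC 2 allows up to 3.23 normalized counts. Compared to Unop nerves, Erbb4 was lower in PEG-fused PNAs (log2 fold change -5.41, SE 0.78, adjusted p = 0.000509) and in NC PNAs (-6.25, SE 0.78, adjusted p = 0.000169). It passed the filter on low counts only through the 2 Unop nerves, so no test remained without either of them. Between PEG-fused and NC PNAs the log2 fold change was 0.84 (95% interval -0.77 to 2.44, adjusted p = 0.402), and a call without NC 1 and NC 3 (2.55, adjusted p = 0.0171) rests on the count of 0 in NC 2.

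Over the 9 genes, 4 were called higher and 1 lower in PEG-fused than in NC PNAs, beside 15.0% of the 16478 tested genes called higher and 13.9% lower. The higher ones were 1 of 5 ligands, Btc, and 3 of 4 receptors, Egfr, Erbb2 and Erbb3. The median log2 fold change was 0.66 over the 9 genes and 0.00 over all tested genes. Without NC 1 and NC 3, with NC 2 as the only control and assumed to vary like the other groups, 6 were called higher and 1 lower, beside 10.8% and 9.61% of all genes tested there. Without PEG 2 the number called higher was 2, beside 8.28% of all genes, and without NC 2 it was also 2, beside 11.3%.

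In PEG-fused PNAs against Unop nerves, 3 genes were called higher (Nrg1, Btc and Areg) and 2 lower (Hbegf and Erbb4), where 29.1% of tested genes were called higher and 28.6% lower. The median was 0.26 over the 9 genes and 0.01 over all tested genes. In NC PNAs against Unop nerves, 3 were called higher (Nrg1, Nrg2 and Btc) and 5 lower (Hbegf and the 4 receptors), where 32.2% of tested genes were called higher and 32.3% lower. The median was -0.39 over the 9 genes and 0.02 over all. Without Unop 2 the number called lower was 3, beside 27.6% of all genes, as Erbb4 left the tested genes and Erbb3 missed the threshold. Since Areg and Erbb4 were tested only because of the group in which they are high, the counts of 9 are a description and not support for a shared direction.

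**Figure D3:**
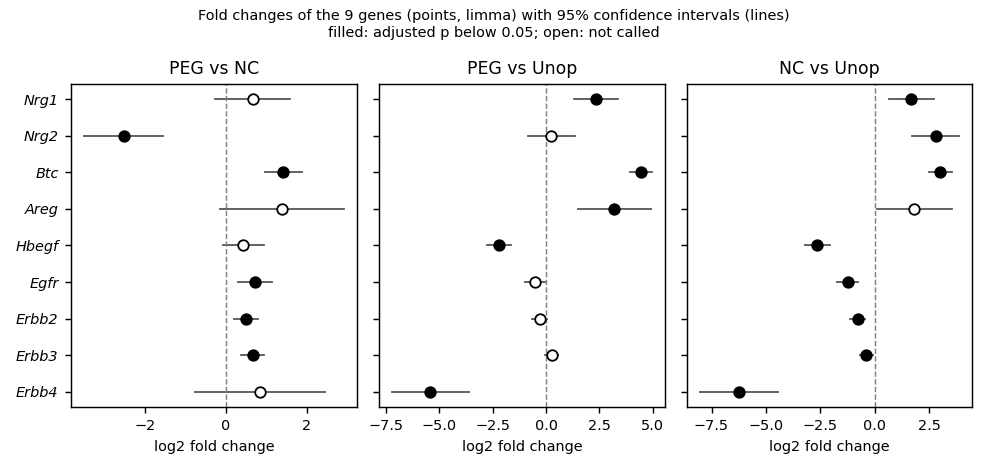
Log2 fold changes of the 9 genes in limma for the 3 comparisons, with points for the estimates, lines for 95% confidence intervals and filled points for adjusted p below 0.05. Btc is the only gene filled on the right in all 3 panels, and Egfr, Erbb2 and Erbb3 are filled on the right in PEG vs NC and on the left in NC vs Unop.

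Other genes of the pathway were taken from 5 lists of 56 genes, of which 53 were tested. Over these lists 14 were called higher and 4 lower in PEG-fused than in NC PNAs, 21 higher and 14 lower in PEG-fused PNAs than in the Unop nerves, and 21 higher and 19 lower in NC PNAs than in Unop nerves. The shares of all tested genes called higher and lower were 15.0% and 13.9%, 29.1% and 28.6%, and 32.2% and 32.3%, and the counts of each list stand beside the same shares. Without NC 1 and NC 3 the counts of PEG-fused against NC PNAs were 12 and 3, beside 10.8% and 9.61% of all genes. The median log2 fold change over the 53 genes was 0.16 in PEG-fused against NC PNAs, 0.13 in PEG-fused PNAs against Unop nerves and 0.02 in NC PNAs against Unop nerves, where the medians over all tested genes were 0.00, 0.01 and 0.02. Without NC 1 and NC 3, PEG-fused against NC PNAs gave 1 higher and 1 lower among the genes of ligand processing, 3 and 1 among adaptors and kinases, 3 and 1 among negative regulators, and 4 and 0 among response genes.

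Among the other ErbB ligands, Tgfa, Nrg4 and Egf were tested. Tgfa, transforming growth factor alpha and a ligand of EGFR, had normalized counts of 119, 104 and 108.8 in PEG-fused PNAs, 74.2, 42.0 and 32.8 in NC PNAs, and 3615 and 5510 in Unop nerves. Both kinds of PNA lay far below the Unop nerves, at 40.1-fold lower for PEG-fused PNAs (log2 fold change -5.33, SE 0.33, adjusted p = 6.09e-06) and 93.4-fold lower for NC PNAs (-6.55, SE 0.33, adjusted p = 1.59e-06). Between the PNAs, Tgfa was 2.33-fold higher in the PEG-fused ones (adjusted p = 0.0175), a call lost without PEG 1 (adjusted p = 0.0544) and without PEG 3 (adjusted p = 0.0505). Nrg4, neuregulin 4 and a ligand of ErbB4, was lower than in Unop nerves both in PEG-fused PNAs (log2 fold change -2.98, adjusted p = 0.000869) and in NC PNAs (-3.14, adjusted p = 0.000502). Egf was not called in any of the 3 comparisons, and its counts were 7.42, 14.0 and 6.57 in PEG-fused PNAs, 49.1, 3.23 and 27.0 in NC PNAs, and 8.59 and 37.5 in Unop nerves, so that the groups overlapped.

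The sheddases and other proteins of ligand processing release or mature the membrane-bound ligands. Of 7 such genes, 4 were called higher and 2 lower in PEG-fused PNAs than in the Unop nerves, and 4 higher and 3 lower in NC PNAs. Adam19, which encodes a metalloprotease, was higher in PEG-fused PNAs (log2 fold change 1.67, adjusted p = 2.47e-05) and in NC PNAs (1.73, adjusted p = 1.34e-05). Furin, a proprotein convertase, was also higher in both (1.67, adjusted p = 4.95e-05, and 1.47, adjusted p = 7.18e-05). Adam17, the main sheddase of EGFR ligands, was higher in both too (1.06, adjusted p = 8.38e-05, and 1.25, adjusted p = 2.35e-05), and Bace1, which cleaves neuregulin 1, was lower in both (-0.53, adjusted p = 0.0228, and -0.82, adjusted p = 0.00261). Between PEG-fused and NC PNAs 1 was called higher and 1 lower. Those were the inactive rhomboids that guide ADAM17 to the surface, Rhbdf1 (0.75, SE 0.10, adjusted p = 0.0016) and Rhbdf2 (-0.48, SE 0.10, adjusted p = 0.0102). Rhbdf1 had 1791, 1851 and 1852 normalized counts in PEG-fused PNAs, 1253, 1022 and 996 in NC PNAs, and 1847 and 1870 in Unop nerves, so that PEG-fused PNAs lay close to Unop nerves. Rhbdf2 had 1585, 1557 and 1810, then 2123, 2487 and 2279, then 572 and 649, with NC PNAs highest.

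Adaptors and kinases carry the signal from the receptors. Of 21 such genes, 4 were called higher and 2 lower in PEG-fused than in NC PNAs, close to the shares over all tested genes, 6 higher and 8 lower in PEG-fused PNAs than in the Unop nerves, and 7 higher and 8 lower in NC PNAs than in Unop nerves. Mapk3, which encodes the kinase ERK1, had normalized counts of 6220, 6674 and 6561 in PEG-fused PNAs, 4028, 4150 and 3670 in NC PNAs, and 24993 and 25475 in Unop nerves. The 3 groups were apart, with Unop nerves far above. Mapk3 was higher in PEG-fused than in NC PNAs (log2 fold change 0.72, SE 0.08, adjusted p = 0.00091) and lower in both than in Unop nerves (-1.96, adjusted p = 1.68e-06, and -2.68, adjusted p = 5.82e-07). Gab2, an adaptor, was higher in PEG-fused than in NC PNAs (0.56, adjusted p = 0.0325), and Grb2, the adaptor that recruits the Ras exchange factor, was lower (-0.44, adjusted p = 0.024). The Gab2 call was lost without any 1 of PEG 1, PEG 2, PEG 3, NC 1 or NC 2 (adjusted p 0.056 to 0.0987), and the Grb2 call without PEG 1, PEG 2, PEG 3 or NC 3 (adjusted p 0.0534 to 0.0823). Shc1, a further adaptor, was higher than in Unop nerves in PEG-fused PNAs (0.99, adjusted p = 0.000295) and in NC PNAs (1.13, adjusted p = 0.000104), Gab2 was higher in both (1.14, adjusted p = 0.000835, and 0.57, adjusted p = 0.0217), and Gab1 was lower in both (-0.98, adjusted p = 0.000328, and -1.32, adjusted p = 4.28e-05).

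Negative regulators limit the receptors or the kinases below them. Of 13 such genes, 4 were called higher and 1 lower in PEG-fused than in NC PNAs, 4 higher and 2 lower in PEG-fused PNAs than in the Unop nerves, and 5 higher and 5 lower in NC PNAs than in Unop nerves. Spry4, an inhibitor of the Ras and ERK cascade, had normalized counts of 592, 665 and 620 in PEG-fused PNAs, 307, 303 and 298 in NC PNAs, and 1082 and 911 in Unop nerves, with no overlap. It was higher in PEG-fused than in NC PNAs (log2 fold change 1.04, SE 0.11, adjusted p = 0.000664) and lower than in Unop nerves in PEG-fused PNAs (-0.67, SE 0.12, adjusted p = 0.00149) and in NC PNAs (-1.71, SE 0.12, adjusted p = 6.2e-06). Lrig3, a membrane protein of a family that restrains ErbB receptors, was higher in PEG-fused than in NC PNAs (0.90, SE 0.13, adjusted p = 0.0024). Cblb, a ubiquitin ligase also known from T cells, was lower (-0.83, SE 0.18, adjusted p = 0.0109), as the T cell markers were, and their part in it was not tested. Relative to Unop nerves, Cblb was higher in PEG-fused PNAs (1.00, adjusted p = 0.00287) and in NC PNAs (1.84, adjusted p = 7.75e-05), as was the ERK phosphatase gene Dusp6 (1.27, adjusted p = 1.08e-05, and 1.31, adjusted p = 6.06e-06). Cbl was also higher in both (1.08, adjusted p = 0.00649, and 1.10, adjusted p = 0.00512).

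Response genes are transcribed after ERK signalling in many cells. Of 9 such genes, 4 were called higher and 0 lower in PEG-fused than in NC PNAs, 7 higher and 0 lower in PEG-fused PNAs than in the Unop nerves, and 5 higher and 1 lower in NC PNAs than in Unop nerves. The median log2 fold changes were 0.59, 1.20 and 0.68. Fosl1, an AP-1 subunit, had normalized counts of 492, 547 and 583 in PEG-fused PNAs, 140, 196 and 254 in NC PNAs, and 107 and 87.6 in Unop nerves, in that order with no overlap. It was 2.81-fold higher in PEG-fused than in NC PNAs (SE 0.22 on the log2 scale, adjusted p = 0.00233). Ccnd1, cyclin D1 of the cell cycle, had 16778, 17065 and 18480 normalized counts in PEG-fused PNAs, 8689, 6630 and 6470 in NC PNAs, and 5998 and 5192 in Unop nerves, and was 2.42-fold higher in PEG-fused than in NC PNAs (adjusted p = 0.000644). Etv4, an ETS transcription factor, was 2.11-fold higher (adjusted p = 0.00234). Against Unop nerves, Fos was higher in PEG-fused PNAs (log2 fold change 2.48, adjusted p = 5.42e-05) and in NC PNAs (1.89, adjusted p = 0.000178), as were Fosl1 (2.46, adjusted p = 6.42e-05, and 0.97, adjusted p = 0.00797), Myc (0.91, adjusted p = 0.000201, and 1.18, adjusted p = 3.29e-05) and Egr1 (1.20, adjusted p = 0.00127, and 1.14, adjusted p = 0.00137). Ccnd1 was higher in PEG-fused PNAs (1.64, adjusted p = 3.12e-05) and missed the threshold in NC PNAs (0.37, adjusted p = 0.0502).

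**Figure D4:**
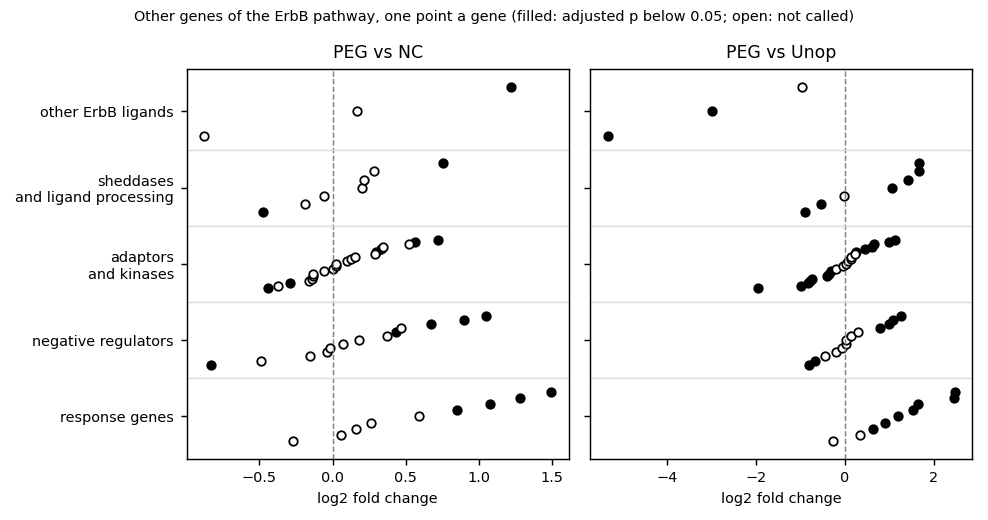
Log2 fold changes of the 53 tested pathway genes in limma, grouped by list, with 1 point per gene and filled points for adjusted p below 0.05, for PEG vs NC on the left and PEG vs Unop on the right. Filled response genes lie only on the right of 0 in both panels, while filled adaptors and kinases lie on both sides.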

How the data were processed

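RNA of 8 sciatic nerve libraries (3 PEG, 3 NC, 2 Unop) had been sequenced by the authors as stranded poly-A paired-end reads, aligned to Rnor_6.0 with Tophat2 and counted per gene with HTSeq-count, with versions not given in the sources used here. The deposited signal values are read counts that the authors divided by DESeq2 median-of-ratios size factors. The deposited tables of fold changes and p-values per comparison were not used. The 16478 genes that reached 10 normalized counts in 2 or more libraries, of 22798 with a read, were tested with limma 3.58.1 (trend) on log2(normalized count + 1), and p-values were adjusted by the Benjamini-Hochberg method over all of them. Of the nonzero values 100% were whole reads within 0.001 after division by the value of 1 read, and edgeR 4.0.16 and DESeq2 1.42.0 on these reads were alternatives. Size factors were between 0.800 and 1.12. R was 4.3.3 and Python 3.11.15. Fits were tested on simulated data.

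The other alternatives were TMM factors, filters of 1 read or 50 counts, a pseudocount of 8, only the groups compared, a block by replicate number, a log2 fold change threshold of 1 and the omission of each library in turn. The omission of NC 1 and NC 3 was chosen after seeing the data. The 9 genes and all lists were chosen with earlier results of these data known. Named were the 9 genes, up to 3 called genes with the largest absolute log2 fold change per pathway list and comparison, and the 3 genes most correlated with Nrg1, Erbb3 and Egfr. Adam17, Bace1, Egf, Ereg, Ngfr and Sox10 were named after their values were seen. Levels were not compared between genes, since transcript lengths were not used here. A gene of the pathway lists is not reported here.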

Additional observations from a re-analysis of the deposited data

Results flagged for a closer look

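Erbb3 lay above the Unop mean in all PEG-fused PNAs and below both Unop nerves in all NC PNAs, and the fold changes of the 2 kinds of PNA against Unop nerves differed by 0.66 on the log2 scale. Limma tested this difference as PEG-fused against NC PNAs (adjusted p = 0.00569). A gene was flagged only if that comparison was called, so this p-value is no further support. Against Unop nerves, Erbb3 was not called in PEG-fused PNAs, and its call in NC PNAs was lost in 6 of 17 alternatives. The fold changes of both kinds of PNA share the 2 Unop libraries.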

How the results depend on the processing

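No result reversed its call. Across the alternatives, 415 values of the 9 genes kept direction and call, 2 uncalled values changed sign (Erbb4 in PEG-fused against NC PNAs without NC 2, -0.02, and Nrg2 in PEG-fused PNAs against Unop nerves without PEG 1, -0.19), 15 lost a call and 10 gained one, and the calls of Btc, Nrg2, Hbegf against Unop nerves and Erbb3 in PEG-fused against NC PNAs were kept in each. With each library left out in turn, PEG-fused against NC PNAs gave 2 to 5 genes of the 9 called higher and 2 to 5 pathway genes called lower, PEG-fused PNAs against Unop nerves gave 1 to 3 of the 9 called lower, and NC PNAs against Unop nerves gave 3 to 5 called lower. Erbb4 could not be fitted without Unop 1 or Unop 2, nor Areg without PEG 1 or PEG 2, because they fell under the filter. Requiring a log2 fold change beyond 1 as well lowered the counts. In PEG-fused against NC PNAs it left 1 of the 9 genes higher, and 5 pathway genes higher and 0 lower. All tested genes gave 726 higher and 1177 lower there. In PEG-fused PNAs against Unop nerves it left 13 pathway genes higher and 3 lower, beside 2758 and 2568 of all tested genes. In NC PNAs against Unop nerves it left 3 of the 9 genes lower, and 11 pathway genes higher and 8 lower. All tested genes gave 3229 higher and 3130 lower there. Without a fold change threshold, 2477 of all tested genes were called higher and 2286 lower in PEG-fused than in NC PNAs. These counts were 1359 and 1390 without PEG 2, and 1601 were called higher without PEG 3. The replicate numbers of PEG-fused and NC PNAs did not pair the libraries, with correlations of deviations of 0.11, 0.11 and -0.05 for equal numbers, and the replicate block ended the Erbb3 call in NC PNAs against Unop nerves (-0.35, adjusted p = 0.0637) and changed no other call of the 9 genes. Depth limits Areg and Erbb4 in the PNAs, with at most 26 and 7 reads a library, and 2 Unop nerves limit every comparison with them.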
